A study of Mus musculus with 12 samples.

Results

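Hearts of tumour-free mice that had run on a treadmill were compared with hearts of mice kept without running, over all genes of the RNA sequencing table. The comparison rests on 6 of the 12 libraries of the series, 3 from control mice and 3 from trained mice, chosen by the titles and treatment labels. All mice were wild-type (WT) C57BL/6J males of 8 weeks. The control mice are labelled Saline and stayed in their cages. The trained mice are labelled Exercise and ran on 5 days per week for 4 weeks. Their first week was for adaptation, with 5 min each at 6, 9, 12 and 15 m/min, and in the following 3 weeks each session lasted 5 min at a speed of 6 m/min plus 35 min at a speed of 12 m/min. Whether trained mice also received saline, and how long after the last run the hearts were taken, is not given in the sources used here. The other 6 libraries came from mice given 100000 B16F10 melanoma cells into the tail vein from week 2, 3 of them untrained and 3 trained. The 3 libraries of trained mice given melanoma cells (tumour trained) are set beside the 6 as values only. Nothing in the labels says that the libraries of a group came from separate mice, so the p-values measure the spread between these libraries, which may be technical.

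Endurance running raises the work of the heart, and with repeated training the heart can grow in a way that keeps its function. In rodents this growth is tied to signalling through insulin-like growth factor 1 and the kinase Akt, to lower levels of the transcription factor C/EBP-beta and higher levels of its partner Cited4. Training is also known for its effects on fatty acid use and on the regulators of mitochondria. Immediate early genes, such as Fos, Egr1 and Nr4a1, are switched on within minutes by stretch, hormones or stress and need no new protein for it.

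Levels are counts relative to library size (CPM, a rate per 1e6 counts), scaled by the trimmed mean of M values (TMM). Library totals ranged from 8843906 to 11932234 counts, and 3 counts corresponded to 0.251 to 0.339 CPM. The extraction protocol names livers, whereas the tissue label says heart. The cardiac myosin gene Myh6 was between 32229 and 36556 CPM in the 6 libraries, and the liver gene Alb was at 3.79 CPM in control 1 and at or below 0.0943 CPM in the other 5. Trained 2 stood apart from trained 1 and trained 3. The first principal component held 45.1% of the variance and placed trained 1 and trained 3 at 27.9 and 27.1 and trained 2 at -29.4. By chi-square per gene, trained 1 and trained 3 differed by 4.36, trained 2 differed from them by 30.7 and 33.1, and the 3 pairs of controls differed by 7.26 to 11.8. Control 1 stood apart from control 2 and control 3 in immediate early genes. Several results that rest on either library are therefore given with and without it.

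No gene differed between trained and control hearts at an adjusted p below 0.05 among 12353 genes tested with edgeR's quasi-likelihood test, with 0 called higher (0%) and 0 called lower (0%). At an unadjusted p below 0.05 in edgeR, 334 genes were higher (2.7%) and 310 were lower (2.51%). The 3 trained libraries lay above all 3 controls for 474 genes (3.84%) and below all 3 for 667 genes (5.4%). DESeq2 called 2 genes higher (0.0122%) and 13 lower (0.079%), and limma-voom with library quality weights called 389 higher (3.15%) and 125 lower (1.01%). The DESeq2 shares are over 16447 genes, of which 8930 got no adjusted p and could not be called. With edgeR the count went to 61 without control 1 and to 816 without trained 2. When the 3 tumour trained libraries joined the edgeR fit, 1 gene was called, Bhlhe40, which was lower (0.00799%).

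The 10 lower and 10 higher genes with the smallest p, among genes whose log2 CPM averaged 1 or more and whose groups did not overlap, are described by their libraries. With all 6 libraries edgeR called 0 of the 20, DESeq2 called 8 of the 10 lower and 1 of the 10 higher, and limma-voom called 9 of each 10. DESeq2 gave no adjusted p for Rtn4r and Prg4 among the lower genes. It also gave none for Nr2f2, Cyp1a1, Zfp442, Zbtb6, Mcm7 and Spa17 among the higher genes. Since small p and non-overlap in these libraries were part of the choice, the non-overlap and the calls of the 20 are a description. In bulk tissue, fewer cells of a type and less RNA per cell cannot be told apart.

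Bhlhe40 encodes a transcriptional repressor that acts on the circadian clock. It was at 85.8, 80.3 and 85.0 CPM in control 1, 2 and 3 and at 38.0, 35.4 and 46.8 CPM in trained 1, 2 and 3. The controls lay within a narrow band and every trained library was well below it. The log2 difference was -1.07 ± 0.13 (SE), with an edgeR adjusted p of 0.235. That p was 0.0214 in the fit of 9 libraries, 0.0343 without control 1 and 0.0147 without trained 2, but 0.0683 with a correction for GC content in the 6 libraries and 1 in the fit of 12 libraries. With DESeq2 it was 1.26e-07. The tumour trained libraries held 66.5, 59.8 and 58.5 CPM.

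Acta1, the skeletal muscle alpha-actin that the fetal and the loaded heart also express, was at 387, 350 and 476 CPM in the controls and at 160, 159 and 232 CPM in the trained hearts. Every control was above every trained library. The log2 difference was -1.14 ± 0.17, with an edgeR adjusted p of 0.549, and 0.0165 without trained 2. Tumour trained hearts held 253, 112 and 147 CPM. Of the other skeletal muscle markers, Myh1 and Myh2 were at or below 0.114 CPM, Tnnt3 at or below 0.512 CPM and Tnni2 at or below 1.51 CPM in the 6 libraries. Ckm, the creatine kinase gene that heart muscle also expresses, was at 2995 to 3759 CPM and overlapped between groups.

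Among the other lower genes, 3 code for proteins of membrane signalling or transport. The nucleotide receptor gene P2ry2 was at 46.1, 64.2 and 67.2 CPM in controls against 24.8, 33.8 and 33.5 CPM in trained hearts. Slc7a1, a carrier of cationic amino acids, was at 117, 130 and 131 CPM against 89.1, 83.4 and 83.0 CPM. Rtn4r, the Nogo receptor, was at 8.88, 9.05 and 10.95 CPM against 5.35, 5.23 and 5.77 CPM. The 3 trained libraries were close to each other for Rtn4r and Slc7a1. The log2 differences of P2ry2, Slc7a1 and Rtn4r were -0.94 ± 0.18, -0.56 ± 0.10 and -0.82 ± 0.17, each with an edgeR adjusted p of 0.77.

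Noct, a clock-regulated phosphatase, was at 49.8, 47.3 and 49.6 CPM in controls and at 32.9, 27.4 and 33.3 CPM in trained hearts (log2 difference -0.65 ± 0.12). Trib1, a pseudokinase that targets proteins for degradation, was at 27.5, 34.9 and 40.03 against 16.2, 20.2 and 21.1 CPM (-0.83 ± 0.17). The controls were tight for Noct, and control 1 was the lowest control for Trib1. Igfbp5, which binds insulin-like growth factors, was at 181, 165 and 153 against 102, 123 and 110 CPM (-0.57 ± 0.12). Prg4, the lubricant proteoglycan lubricin, was at 14.6, 14.2 and 16.1 against 8.20, 10.4 and 8.96 CPM (-0.70 ± 0.16). The edgeR adjusted p of these 4 genes was 0.77 with 6 libraries. The remaining lower gene, Nr4a3, belongs with the immediate early genes described further on.

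Among the higher genes, Angptl4 had the largest log2 difference, 2.12 ± 0.49. Angptl4 is a secreted inhibitor of lipoprotein lipase and a target of the fatty acid receptors called PPARs. It was at 7.59, 14.5 and 9.32 CPM in controls and at 48.7, 71.3 and 16.0 CPM in trained hearts. Trained 1 and trained 2 were far above all controls, whereas trained 3 was only just above control 2. Its edgeR adjusted p was 0.77, and 0.0506 without trained 2. The tumour trained hearts held 18.7, 8.87 and 12.6 CPM.

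Cited2, a partner of the coactivators CBP and p300 that restrains hypoxia signalling, was at 46.3, 35.4 and 32.4 CPM in controls and at 82.2, 71.6 and 55.7 CPM in trained hearts. Aqp7, a channel for water and glycerol, was at 21.6, 14.2 and 15.6 against 28.5, 34.3 and 27.7 CPM. Control 1 was the highest control for both. Nr2f2, a transcription factor of atrial and venous cells, was at 9.62, 7.73 and 9.62 against 14.3, 14.1 and 16.4 CPM. Cyp1a1, a target of the aryl hydrocarbon receptor, was at 2.22, 4.72 and 6.65 against 10.8, 11.5 and 12.8 CPM. The log2 differences of Cited2, Aqp7, Nr2f2 and Cyp1a1 were 0.87 ± 0.19, 0.81 ± 0.19, 0.73 ± 0.16 and 1.37 ± 0.32, each with an edgeR adjusted p of 0.77.

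The other 5 higher genes were of low level. The replication helicase gene Mcm7 was at 10.2, 7.26 and 8.60 CPM in controls and 13.1, 14.8 and 14.9 CPM in trained hearts. The transcription factor gene Sox4 was at 12.2, 10.3 and 11.2 against 18.2, 20.8 and 15.3 CPM. Zfp442, Zbtb6 and Spa17 had means of 4.25, 3.92 and 3.95 CPM in controls and of 9.36, 7.201 and 7.14 CPM in trained hearts. Trained 2 was the lowest trained library for Zfp442 and Zbtb6, both of which encode zinc finger proteins. The 20 were chosen by p in these libraries, so their calls in refits are a description too. Without trained 2, edgeR called all 10 lower genes and 8 of the 10 higher genes (not Angptl4 and Spa17). Over all genes tested, edgeR called 0.976% lower and 5.55% higher in that fit. Without trained 2 and control 1 it called 1000 genes higher (8.08%) and 403 lower (3.25%), and without trained 2 in the fit of 9 libraries 1094 higher (8.67%) and 412 lower (3.26%). Without trained 2 but with a correction for GC content, it called 1 of the 20, Bhlhe40. The median log2 difference under that correction was -0.80 for the 10 lower genes (-0.83 before it) and 0.79 for the 10 higher genes (0.84 before it). Single genes moved more. Zfp442 went from 1.33 to 0.78, Zbtb6 from 1.02 to 0.60 and Rtn4r from -0.79 to -0.63. Noct went from -0.56 to -0.67 and Mcm7 from 0.69 to 0.79, which are larger sizes.

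**Figure D1:**
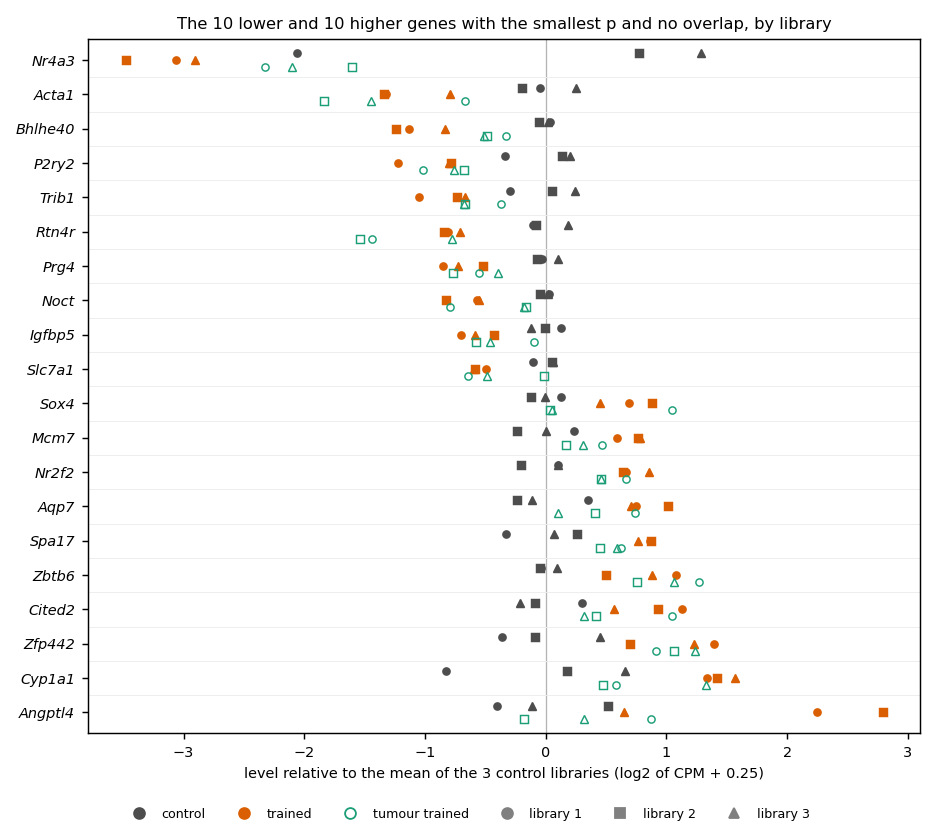
Level of the 20 ranked genes in each library, as log2 of CPM + 0.25 minus the mean of the 3 controls (grey), for trained (orange) and tumour trained hearts (open green), with 1 mark shape per replicate number. The groups of control and trained libraries do not overlap for any of the 20 because the rule asked for it, and Nr4a3 has a control 1 far below control 2 and control 3.

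The immediate early genes split the controls. Of 34 listed genes 33 were in the table and 29 passed the filter on low counts. With edgeR 0 were called and 20 were lower at an unadjusted p below 0.05, against 2.51% of all genes. DESeq2 called 1 of them lower, Nr4a3, and limma-voom called 1 lower, Jund. The median log2 difference of the 29 was -1.03, beside 0.01 over all genes tested. Only Nr4a3 and Ier5 had groups that did not overlap, beside 5.4% of all genes lower in this way. For 25 of the 29, all 3 trained libraries were below both control 2 and control 3, beside 1260 of all 12353 genes tested (10.2%). Control 1 was not above the trained range for 23 of these 25, beside 593 of those 1260. Control 1 was the lowest control for 27 of the 29 (93.1%), beside 37.6% of all genes.

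Fos, which encodes a subunit of the AP-1 transcription factor, was at 4.26, 90.7 and 86.2 CPM in control 1, 2 and 3 and at 6.37, 9.03 and 12.6 CPM in the trained hearts. Atf3, a stress-induced transcription factor of the ATF family, was at 7.77, 359 and 339 CPM against 3.98, 7.42 and 13.4 CPM. The nuclear receptor gene Nr4a1 was at 16.8, 581 and 538 CPM against 12.0, 20.6 and 58.4 CPM. For these 3 genes control 2 and control 3 were high and the other 4 libraries were low, so the groups overlapped through control 1. The log2 differences of Fos, Atf3 and Nr4a1 were -2.68 ± 0.84, -4.82 ± 1.12 and -3.64 ± 1.06, with edgeR adjusted p of 0.845, 0.77 and 0.836. Without control 1 the adjusted p were 0.00107, 0.000844 and 0.0175. With control 1 as the only control the differences were 1.12, 0.08 and 0.84.

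Nr4a3, a nuclear receptor of the same family as Nr4a1, was at 15.5, 112 and 160 CPM in controls and at 7.63, 5.65 and 8.55 CPM in trained hearts. Control 1 was above every trained library but closer to them than to the other controls. Fosb was at 0.833, 32.9 and 37.2 CPM against 1.02, 1.35 and 1.96 CPM. Egr1, a zinc finger transcription factor, was at 39.6, 194 and 157 CPM against 63.2, 112 and 105 CPM. Trained 2 and trained 3 were much closer to control 2 and control 3 in Egr1 than in Fos or Atf3. The log2 difference of Egr1 was -0.47 ± 0.47 (edgeR adjusted p 0.999).

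Junb, Dusp1, Klf4 and Ier2 had smaller differences, of -0.68 ± 0.32, -0.85 ± 0.37, -0.84 ± 0.24 and -0.52 ± 0.25 on the log2 scale. Dusp1, a phosphatase that shuts off MAP kinases, was at 94.5, 247 and 308 CPM in controls and 87.9, 139 and 133 CPM in trained hearts. Klf4 was at 63.0, 118 and 127 against 48.7, 59.0 and 64.6 CPM. In both genes control 1 lay within the trained range. Myc, Ier3 and Socs3 did not show the high values of control 2 and control 3, with Myc at 3.33, 5.19 and 5.02 CPM in controls against 6.03, 8.02 and 4.74 CPM. Klf6 was at 57.5, 88.5 and 86.8 against 69.5, 46.0 and 103 CPM, with trained 3 above every control.

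Among the tumour trained hearts, the second library had the highest level of several of these genes. Nr4a1 was at 48.3, 261 and 61.4 CPM, Atf3 at 7.45, 69.4 and 12.1 CPM and Fos at 31.7, 47.9 and 9.46 CPM in tumour trained 1, 2 and 3. High and low libraries thus occurred within a group among those hearts too.

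**Figure D2:**
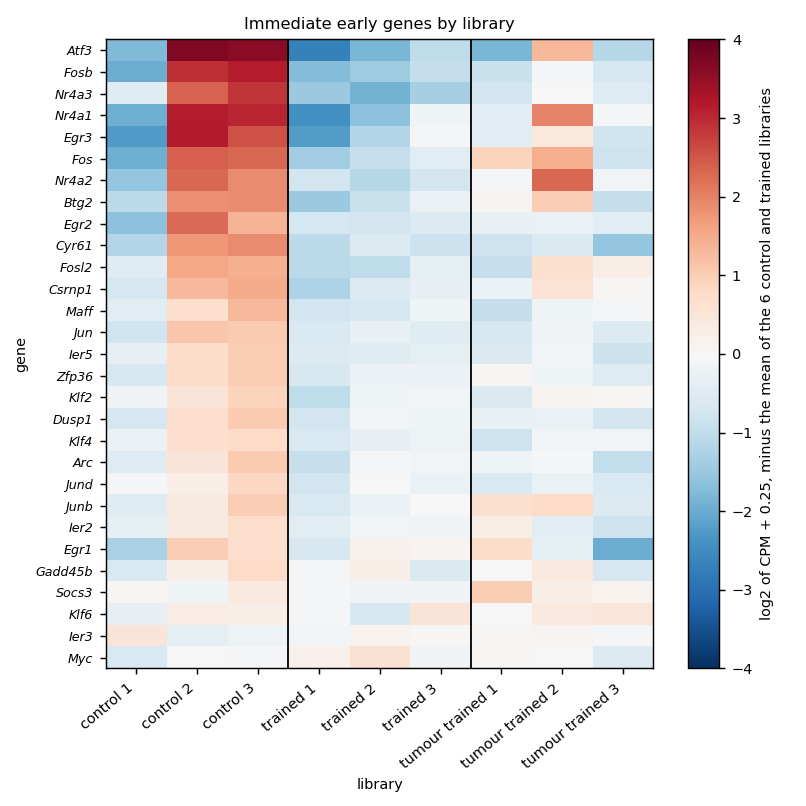
Heat map of the 29 immediate early genes tested (rows of genes, columns of libraries), coloured by log2 of CPM + 0.25 minus the mean of the 6 control and trained libraries. Control 2 and control 3 are red for most genes, while control 1 and the 3 trained libraries are mostly blue.

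The fit without control 1 called 58 genes lower (0.464%) and 3 higher (0.024%). Of the 58, 17 were in the immediate early list. For 16 of the 58 control 1 was above the trained range, for 30 within it and for 12 below it, and for 57 it was below both other controls. Over all 12353 genes tested, control 1 was above the trained range for 2238, within it for 7713 and below it for 2402. It was below both other controls for 4640 of them (37.6%). The 58 were chosen by a fit with control 2 and control 3 as the only controls. The positions of control 1 thus follow in part from the choice. Genes outside the list, chosen here after their values were seen, included Irs2, an insulin receptor substrate, at 7.40, 81.9 and 108 CPM in controls and 7.17, 8.18 and 9.27 CPM in trained hearts. Thbs1, the matrix protein thrombospondin 1, was at 16.9, 208 and 180 against 9.33, 11.3 and 17.4 CPM. The tight junction gene Cldn5 was at 31.7, 113 and 153 against 28.6, 42.0 and 38.8 CPM. Control 1 was inside the trained range for each of the 3. The circadian gene Per1, which hormones and cAMP also induce, was at 36.8, 104 and 128 against 24.2, 23.1 and 38.3 CPM.

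The 3 genes called higher without control 1 were Fam84b, Pik3ip1 and Mycn. Pik3ip1, an inhibitor of phosphoinositide 3-kinase, was at 54.0, 34.2 and 33.1 CPM in controls and at 70.8, 69.3 and 63.9 CPM in trained hearts, so that its groups did not overlap. Mycn was at 10.8, 2.55 and 2.05 against 6.26, 8.10 and 7.52 CPM, with control 1 above every trained library. Xirp1, which is induced in loaded muscle, was called lower without control 1 and was at 342, 730 and 695 against 281, 350 and 291 CPM. Actg1, a cytoplasmic actin, was at 473, 1009 and 1024 against 357, 496 and 483 CPM. In both, control 1 was within the trained range.

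The promoters of 4 immediate early genes and of Acta1 are shown because these genes had among the largest differences between libraries and the factors that bind such motifs respond to cAMP and to load. The sequences are the 250 bases before the start of the gene, 5' to 3' on the strand of the gene, from RefSeq on GRCm38.p6. Capitals mark the motif TGACG or its complement CGTCA in the first 4 and the CArG box, the site of serum response factor, in Acta1.
Nr4a3 (chr4:48045055-48045304, plus strand): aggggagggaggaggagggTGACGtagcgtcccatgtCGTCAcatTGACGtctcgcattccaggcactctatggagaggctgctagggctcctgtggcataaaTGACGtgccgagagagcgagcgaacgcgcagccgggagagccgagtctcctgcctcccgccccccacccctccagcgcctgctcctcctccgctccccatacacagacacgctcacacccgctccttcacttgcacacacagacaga
Nr4a1 (chr15:101266596-101266845, plus strand): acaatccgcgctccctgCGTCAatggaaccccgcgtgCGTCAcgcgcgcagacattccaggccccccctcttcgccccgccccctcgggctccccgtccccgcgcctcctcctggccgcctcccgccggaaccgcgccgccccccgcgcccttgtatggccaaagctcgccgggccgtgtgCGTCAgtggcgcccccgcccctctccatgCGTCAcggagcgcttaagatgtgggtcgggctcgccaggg
Fos (chr12:85473640-85473889, plus strand): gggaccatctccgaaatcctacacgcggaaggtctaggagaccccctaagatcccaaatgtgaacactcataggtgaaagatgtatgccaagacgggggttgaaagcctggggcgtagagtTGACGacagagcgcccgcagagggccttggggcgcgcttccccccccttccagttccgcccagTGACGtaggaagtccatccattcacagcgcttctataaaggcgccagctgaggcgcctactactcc
Atf3 (chr1:191183334-191183583, minus strand): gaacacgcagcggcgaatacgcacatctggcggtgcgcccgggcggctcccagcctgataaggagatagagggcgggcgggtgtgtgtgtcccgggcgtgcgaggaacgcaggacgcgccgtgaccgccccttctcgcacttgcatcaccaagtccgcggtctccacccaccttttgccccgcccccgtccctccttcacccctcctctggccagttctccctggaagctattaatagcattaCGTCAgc
Acta1 (chr8:123894776-123895025, minus strand): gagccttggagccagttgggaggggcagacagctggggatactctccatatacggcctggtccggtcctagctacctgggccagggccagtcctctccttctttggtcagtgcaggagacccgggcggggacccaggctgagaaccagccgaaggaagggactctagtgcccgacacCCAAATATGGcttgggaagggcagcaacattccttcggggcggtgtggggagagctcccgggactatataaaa

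The windows of 9860 genes tested and of 24 genes of the immediate early list were searched on both strands. Some genes had more than 1 window, and a gene was counted if any of its windows held the motif. The cAMP response element TGACGTCA was in 2.96% of all these genes and in 3 of the 24. The shorter TGACG, which every TGACGTCA also contains, was added after these sequences were seen. It was in 30.4% of all these genes and in 15 of the 24 (62.5%). The AP-1 motif, TGACTCA or TGAGTCA, was in 3.87% of all these genes and in 1 of the 24. The CArG box was in 1.43% and in 2 of the 24. Nr4a3 and Nr4a1 had 4 copies of TGACG each, Fos had 2 and Atf3 had 1. The CArG box of Acta1 lay at -73 to -64 from the start of the gene. A match of letters is a description and not a binding site.

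Genes that act close to the immediate early genes were described by their lists. Early cytokines and chemokines had 10 members tested and a median log2 difference of -0.47 (-0.74 without control 1). In edgeR, 4 were lower at an unadjusted p below 0.05, beside 2.51% of all genes. Ccl7, a monocyte chemokine, was at 2.41, 5.85 and 3.58 CPM in controls and at 1.25, 1.52 and 1.85 CPM in trained hearts. Of 13 feedback inhibitors of MAP kinases 3 were lower and 1 was higher at that p, beside 2.51% and 2.7% of all genes. Their median was -0.12. Dusp8 was at 60.7, 93.0 and 97.0 against 49.5, 54.6 and 53.0 CPM, and Rgs2, which limits G protein signalling, was at 31.4, 25.2 and 20.9 against 36.9, 33.6 and 41.7 CPM. The groups of Ccl7, Dusp8 and Rgs2 did not overlap, and their log2 differences were -1.34 ± 0.37, -0.67 ± 0.17 and 0.53 ± 0.17.

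The glucocorticoid response list had 22 members tested and a median of -0.15. At an unadjusted p below 0.05 in edgeR, 8 were lower and 1 was higher, beside 2.51% and 2.7% of all genes. Several members of the list are also induced as early genes. Cdkn1a, the cell cycle inhibitor p21, was at 58.5, 105 and 144 CPM in controls and at 34.0, 49.3 and 49.6 CPM in trained hearts (log2 difference -1.20 ± 0.29), and DESeq2 and limma-voom called it lower. Sgk1, a kinase that regulates ion transport, was at 120, 339 and 311 against 108, 132 and 147 CPM, with control 1 within the trained range. The classical target Fkbp5 was at 17.5, 16.2 and 17.4 against 14.3, 16.4 and 14.3 CPM (-0.18 ± 0.14).

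Heat shock genes had a median of -0.06. Of 21 members, 4 were lower and 0 higher at an unadjusted p below 0.05 in edgeR, beside 2.51% and 2.7% of all genes. With limma-voom, 5 were called lower (Bag3, Dnajb1, Hspa1a, Hspa1b and Hspb8), beside 1.01% of all genes. It called 1 higher, Hsp90aa1, beside 3.15% of all genes. The edgeR log2 difference of Hsp90aa1 was 0.57. The stress-inducible chaperone genes Hspa1a and Hspa1b, near-identical copies whose reads cannot be cleanly separated, were low in all libraries. Hspa1a was at 5.18, 9.15 and 8.91 CPM in controls and 2.85, 2.53 and 4.43 CPM in trained hearts. Hspa1b was at 3.89, 6.51 and 4.91 against 1.82, 2.70 and 2.27 CPM. Neither overlapped between groups, and the log2 differences were -1.25 ± 0.30 and -1.15 ± 0.27, with an edgeR adjusted p of 0.77. Bag3, a cochaperone that maintains the sarcomere, was at 495, 422 and 439 against 301, 367 and 319 CPM, and Dnajb1 was at 23.2, 31.8 and 30.6 against 18.3, 21.9 and 19.9 CPM. Gdf15, a stress-induced hormone that lowers appetite, was at 2.87, 3.96 and 5.53 against 1.25, 2.19 and 1.13 CPM.

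Genes of exercise-type cardiac growth had a median log2 difference of 0.01 over 22 members. Cebpb was at 35.5, 38.4 and 53.5 CPM in controls and at 22.0, 26.7 and 26.9 CPM in trained hearts, with no overlap (log2 difference -0.75 ± 0.18, edgeR adjusted p 0.77, and 0.0363 without trained 2). Cited4 was at 31.3, 37.5 and 43.0 against 19.7, 28.7 and 21.5 CPM (-0.67 ± 0.18, edgeR adjusted p 0.788, and 0.0176 without trained 2). Both were lower in all 3 trained libraries. With GC offsets added to the fit without trained 2, the edgeR adjusted p were 0.0904 for Cebpb and 0.0775 for Cited4, and the log2 differences -0.61 and -0.68. The tumour trained hearts held 16.0, 20.0 and 15.6 CPM of Cited4. Igf1 was at 5.65, 7.36 and 10.4 against 8.76, 7.003 and 12.0 CPM, which overlapped.

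The lists of energy metabolism had medians near 0. The 76 genes of oxidative phosphorylation tested had a median log2 difference of 0.04, ranged from -0.14 to 0.15, and gave 0 members at an unadjusted p below 0.05 in edgeR. The medians were -0.03 for the 23 genes of fatty acid oxidation, -0.03 for the 22 of the TCA cycle, -0.05 for the 26 of glycolysis and glucose uptake, and -0.02 for the 20 mitochondrial regulators. At an unadjusted p below 0.05 in edgeR, 2 genes of glycolysis and 1 mitochondrial regulator were lower and 0 were higher. Over all genes tested, 2.51% were lower and 2.7% higher at that p. Slc16a3, an exporter of lactate, was at 2.499, 3.21 and 4.10 CPM in controls and at 1.59, 1.69 and 1.85 CPM in trained hearts (log2 difference -0.92 ± 0.27). The glycolytic enzyme gene Pgam1 was at 118, 108 and 121 against 78.3, 98.5 and 90.8 CPM (-0.37 ± 0.12). Pprc1, a coactivator related to Ppargc1a, was at 22.9, 24.99 and 25.5 against 17.2, 21.5 and 17.0 CPM (-0.40 ± 0.15). The groups of these 3 genes did not overlap, and their edgeR adjusted p were 0.836, 0.874 and 0.909. Ppargc1a, the coactivator that drives mitochondrial biogenesis, was at 97.4, 106 and 91.6 CPM in controls and at 162, 89.4 and 118 CPM in trained hearts. Trained 2 was below all controls and the other 2 were above them. The log2 difference of Ppargc1a was 0.31 ± 0.19 (edgeR adjusted p 0.973). Without trained 2 it was 0.50 (edgeR adjusted p 0.0536), and 0.18 with GC offsets in that fit (edgeR adjusted p 0.530). Esrra, its partner receptor, was at 159, 155 and 178 against 156, 197 and 150 CPM.

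PPAR-responsive lipid genes had a median of -0.02 over 23 members, and apart from Angptl4 they overlapped for the genes of the panel. Pdk4, the kinase that blocks pyruvate use in mitochondria, was at 363, 742 and 952 CPM in controls and 1346, 1095 and 549 CPM in trained hearts. Ucp3, a mitochondrial carrier induced by fatty acids, was at 39.9, 59.8 and 77.1 against 98.9, 109 and 65.8 CPM. In Pdk4, Ucp3 and Angptl4 alike, trained 3 was the lowest trained library and control 1 the lowest control. The log2 differences of Pdk4 and Ucp3 were 0.54 ± 0.37 and 0.64 ± 0.25, with edgeR adjusted p of 0.984 and 0.947. They were 0.24 and 0.42 without control 1, and 1.45 and 1.19 with control 1 as the only control. Plin2, which coats lipid droplets, was at 57.3, 60.0 and 59.3 against 69.2, 69.8 and 54.4 CPM.

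The lists of contractile and electrical genes had medians near 0, but single members differed more. The medians were -0.02 for 24 sarcomere genes, -0.01 for 18 genes of calcium handling and -0.02 for 24 potassium and sodium channels. Members ranged from -0.28 to 0.56, from -0.49 to 0.84 and from -0.44 to 0.66 in these lists. With limma-voom, Nebl, Tnnt2, Trdn and Kcnj2 were called higher and Kcnh2 lower, beside 3.15% and 1.01% of all genes. Myh6 had a mean of 34834 ± 1892 CPM (SD, n = 3) in controls and 34268 ± 2022 CPM in trained hearts. Myh7, the slow myosin heavy chain, was at 139, 96.9 and 171 against 85.3, 127 and 122 CPM. The calcium pump gene Atp2a2 was at 19152, 18350.3 and 16603 against 17574, 14984 and 14692 CPM (log2 difference -0.20 ± 0.11). Kcnj2, the inward rectifier channel of the resting potential, was at 46.8, 33.9 and 30.2 against 69.0, 51.0 and 56.2 CPM, with no overlap (0.66 ± 0.19, edgeR adjusted p 0.836). The natriuretic peptide genes Nppa and Nppb had log2 differences of 0.19 ± 0.15 and -0.11 ± 0.26.

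The vascular, matrix and clock genes of the panel overlapped. Vegfa, the main angiogenic factor, was at 294, 337 and 439 CPM in controls and at 328, 318 and 309 CPM in trained hearts, and the peptide gene Apln differed by -0.10 ± 0.14 on the log2 scale. Col1a1 had a mean of 107 CPM in both groups. Dbp, a clock output gene that cycles widely over the day, was at 27.9, 8.68 and 9.11 against 20.7, 9.45 and 37.2 CPM, and at 115, 50.7 and 55.1 CPM in tumour trained hearts. Nr1d1, a clock repressor, was at 154, 94.2 and 99.4 against 133, 162 and 145 CPM. The metallothionein gene Mt2 differed by 0.10 ± 0.17. Among 25 pathway lists, the 22 other than the immediate early genes, the early cytokines and the glucocorticoid response had medians between -0.12 and 0.19.

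**Figure D3:**
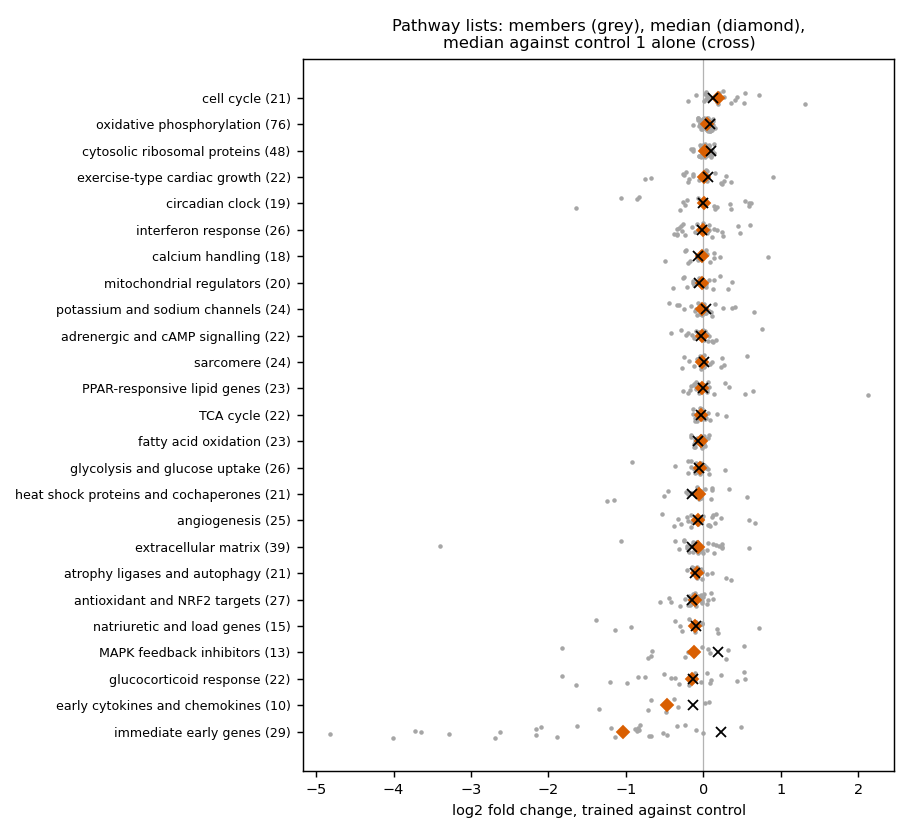
Log2 differences of trained against control hearts for the members of 25 pathway lists (grey points, number tested in brackets), with the median of each list over 6 libraries (orange diamond) and against control 1 alone (black cross). The immediate early genes lie at -1.03 with all controls and at 0.22 with control 1 alone, while the lists of energy metabolism lie near 0 in both.

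A second pattern followed trained 2. Without trained 2, edgeR called 694 genes higher (5.55%) and 122 lower (0.976%). For 399 of the 694, trained 2 was below all 3 controls, for 242 it was within their range and for 53 it was above. Over all 12353 genes tested the counts were 4194 below, 4291 within and 3868 above. The 694 genes had transcripts of low GC content, with a median of 41.4% beside 49.9% over all genes tested. With GC offsets in the same fit, 4 genes were higher (0.032%) and 1 was lower (0.008%). The median log2 difference of the 694 genes was 0.77 without the offsets and 0.45 with them, and that of the 122 lower genes was -0.46 and -0.35.

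Clk1, a kinase of splicing factors, was at 21.0, 22.6 and 20.8 CPM in controls and at 65.9, 21.3 and 57.6 CPM in trained hearts. Luc7l3, a splicing factor, was at 14.7, 16.6 and 18.8 against 43.4, 13.2 and 39.6 CPM. Hsp90b1, the chaperone of the endoplasmic reticulum, was at 180, 193 and 177 against 305, 114 and 349 CPM. In each case trained 1 and trained 3 were high and trained 2 was within or below the range of the controls. The tumour trained libraries held 50.3, 62.9 and 51.0 CPM of Clk1, 35.0, 43.0 and 39.7 CPM of Luc7l3, and 339, 372 and 433 CPM of Hsp90b1. These 3 genes were chosen after their values were seen, and their log2 differences with all 6 libraries were 1.15 ± 0.34, 0.93 ± 0.37 and 0.48 ± 0.33.

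Cardiac genes were among them. Trdn, which anchors the calcium release channel, was at 46.0, 66.4 and 81.8 CPM in controls and at 170, 44.3 and 136 CPM in trained hearts. Tnnt2, cardiac troponin T, was at 7652, 8262 and 7701 against 10839, 7456 and 10286 CPM. Lpl, the lipase that releases fatty acids from lipoproteins, was at 3421, 4750 and 4765 against 6341, 3453 and 6587 CPM. Trained 2 was below the lowest control for Trdn and Tnnt2 and just above it for Lpl, and the edgeR adjusted p without trained 2 was 0.0158, 0.0167 and 0.0346, and 0.0988, 0.0549 and 0.165 with GC offsets in that fit.

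**Figure D4:**
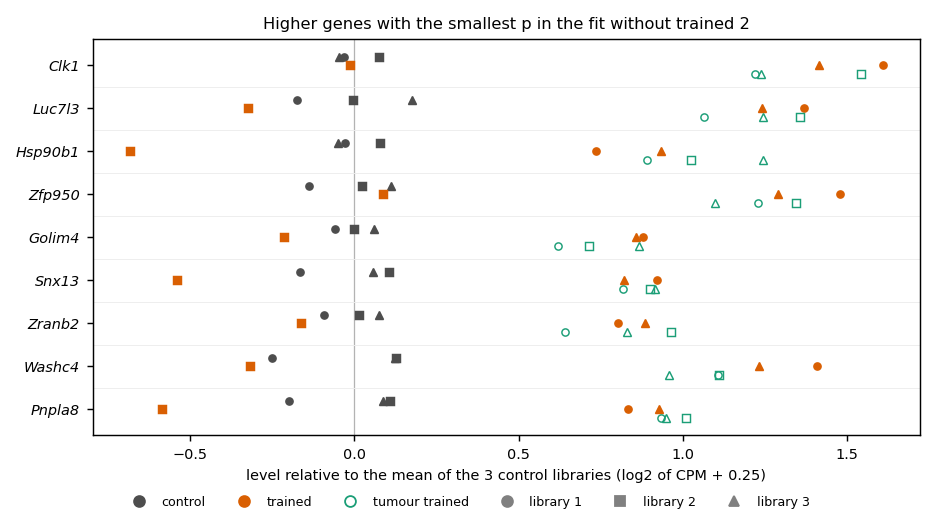
Level of the higher genes with the smallest p in the fit without trained 2, as log2 of CPM + 0.25 minus the mean of the 3 controls, by library. Trained 1 and trained 3 (orange circle and triangle) lie with the tumour trained libraries (open green), and trained 2 (orange square) lies with or below the controls (grey).

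The difference was graded by GC content over all genes. In the 1 of 5 equal groups of genes with the lowest GC, of 31.0% to 44.0%, the median log2 level relative to the mean of the 6 libraries was 0.28 and 0.32 in trained 1 and trained 3 and -0.39 in trained 2. It was -0.13, 0.02 and -0.05 in control 1, 2 and 3, and 0.29, 0.35 and 0.34 in the tumour trained libraries. In the group with the highest GC the order was the reverse, with -0.12, 0.20 and -0.12 in trained 1, 2 and 3. The 3 controls lay between -0.05 and 0.09 there. By chi-square per gene, trained 1 and trained 3 differed from the tumour trained libraries by 3.98 to 7.46, and trained 2 differed from the tumour trained libraries by 35.7 to 44.6. Whether the libraries were made or sequenced together is not given in the sources used here, and the part of GC content in these differences was not tested beyond the fits with offsets.

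**Figure D5:**
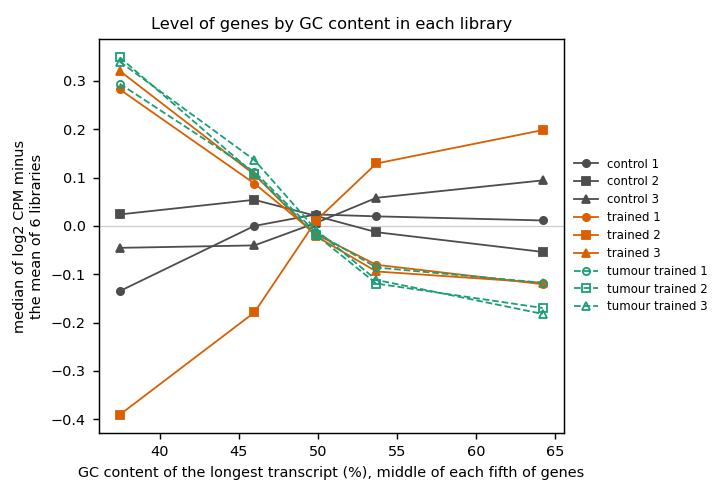
Median of log2 CPM minus the mean of the 6 control and trained libraries, in 5 equal groups of genes by the GC content of their longest transcript, for each of 9 libraries. Trained 1, trained 3 and the tumour trained libraries slope down from about 0.3, trained 2 slopes up from -0.39, and the controls lie between them.

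Genes on the lower side of the fit without trained 2 were of high GC content, with a median of 55.7%. For 64 of the 122, trained 2 was below all 3 controls, for 37 it was within their range and for 21 above it. Over all 12353 genes tested these counts were 4194, 4291 and 3868. Pdxk, the kinase that makes the active form of vitamin B6, was at 24.8, 26.3 and 30.1 CPM in controls and at 15.0, 22.7 and 15.7 CPM in trained hearts. Every trained library was below every control, with trained 2 the nearest to them, and the log2 difference was -0.60 ± 0.19 (edgeR adjusted p 0.845). Cish, an inhibitor of cytokine signalling, was different, at 210, 154 and 136 against 85.8, 191 and 80.9 CPM, with trained 2 among the controls. Both genes were also chosen after their values were seen.

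Markers of other cells and tissues were compared as shares of all counts. The erythrocyte list took 0.132%, 0.0845% and 0.179% of counts in controls and 0.358%, 0.173% and 0.203% in trained hearts (exact two-sided permutation p = 0.2, where 0.1 is the smallest that 3 against 3 allows). The groups overlapped, and trained 1 held the most. The beta-globin gene Hbb-bs was at 364, 221 and 535 CPM against 1202, 524 and 636 CPM, and the alpha-globin gene Hba-a1 was at 372, 192 and 548 against 1128, 509 and 592 CPM. Globin genes are near-identical copies, so the split between them is uncertain. The 9 erythrocyte genes tested had a median log2 difference of 0.99, and 0.58 without trained 1.

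The cardiomyocyte list took 9.90% to 10.3% of counts in controls and 10.3% to 10.7% in trained hearts, and the fibroblast list 0.218% to 0.240% and 0.196% to 0.216%. Both had an exact permutation p of 0.1, the smallest possible, among 21 cell type lists and without correction for their number. The 10 cardiomyocyte genes had a median log2 difference of 0.02, and 0 of them had groups that did not overlap. For the 10 fibroblast genes the median was -0.11, and 1 did not overlap. The list of B cells and plasma cells also gave an exact permutation p of 0.1 through Cd74, at 157, 242 and 185 CPM against 125, 148 and 136 CPM. Mzb1, a plasma cell gene, went the other way, at 1.11, 0.754 and 1.23 against 1.37, 1.43 and 1.54 CPM, and Ms4a1 was at or below 0.377 CPM. Cd74 is also made by other antigen-presenting cells. Of the adipocyte markers, Adipoq and Plin1 were at or below 0.377 CPM, while Car3 was at 1.76, 1.13 and 1.33 against 0.455, 0.338 and 0.309 CPM and Cfd at 1.02, 1.04 and 1.43 against 0.342, 0.422 and 0.206 CPM. The list also holds Lpl, given above, which heart muscle expresses and which made up most of its counts. The share of counts of the list had a mean of 0.425% in controls and 0.547% in trained hearts (exact permutation p = 0.3). The mesothelial markers Msln and Upk3b were at 1.67 and 2.31 CPM in control 1, at 0.928 and 1.69 CPM in trained 2 and at or below 0.0943 CPM in the other 4 libraries. Of the melanocyte markers, Tyrp1 was at 0 in all 6, which allows up to 0.251 to 0.339 CPM. Dct was at 8.42, 3.30 and 4.30 CPM in controls and at 4.67, 4.39 and 4.22 CPM in trained hearts, which overlapped. Gpnmb was at 3.24, 3.30 and 2.76 against 1.02, 2.19 and 2.16 CPM, with no overlap. The melanocyte list took a mean of 0.00637% of counts in controls and 0.00652% in trained hearts (exact permutation p = 0.8). The part of the cells of these lists in the differences above was not tested.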

How the data were processed

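The authors deposited 1 table of estimated counts for the series, without normalization. HISAT2 2.2.1 and featureCounts are named in the submitters' processing notes, with both GRCm39 and mm10 as builds. Which build, annotation and strand setting gave the table is not given in the sources used here. Reads of overlapping and antisense genes therefore cannot be separated. Between 7.09% and 7.32% of values per library were not whole, and counts were rounded. The table holds 17397 genes and none encoded by mitochondria. A total of 24 symbols turned into dates were restored from the gene ID.

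The 6 libraries were fitted in R 4.3.3 with edgeR 4.0.16 (quasi-likelihood F test, TMM, filter by group, 1 mean per group), with Benjamini-Hochberg adjustment over 12353 genes and calls below 0.05. Standard errors are the size of the log2 difference divided by the square root of F. Other tools were limma 3.58.1 and DESeq2 1.42.0, and the steps were tested on simulated data. GC content is that of the longest GENCODE M21 transcript (97.2% of genes), removed through offsets from a lowess curve of span 0.3. The 24 alternatives included leaving out each library, and 4 of them were added after seeing the data.

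The members, the 25 pathway and 21 cell type lists and the rules were chosen with earlier results of these data known. Genes were named from a panel of 36, from the 10 per direction with the smallest p, level and no overlap as described, and from the members of each list with the smallest p (at most 4). Genes named after their values were seen are Fam84b, Mycn, Pik3ip1, Xirp1, Actg1, Sgk1, Trdn, Tnnt2, Lpl and those so marked. A few genes that the naming rule covers are left out here. Correlations of same-numbered deviations were -0.11, -0.30 and 0.03, and those of differently numbered libraries ranged from -0.23 to 0.28. They cannot show whether replicate numbers paired the libraries, since the 3 deviations of a group depend on each other. Shares of counts use plain library totals, and the depth of 3 counts covers counting error only.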

Additional observations from a re-analysis of the deposited data

How the results depend on the processing

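The count of 0 called genes with edgeR was also 0 under DESeq2 size factors, library size alone, other filters, robust dispersion, GC offsets, a minimum log2 difference of 0.5 and the fit of 12 libraries. With the replicate number as a block it was 0, with 499 genes at an unadjusted p below 0.05 beside 644 without it. DESeq2 called 15 genes, limma-voom 514, the fit of 9 libraries 1, and that fit with GC offsets 1. Leaving out 1 library at a time gave between 0 and 816 calls, with 816 without trained 2, 61 without control 1 and 0 without each of the other 4. Without both, 1403 were called, without trained 2 in 9 libraries 1506, and without trained 2 with GC offsets 5. The median log2 difference of the immediate early genes ranged from -1.34 to -0.75 when 1 library was left out and was 0.22 with control 1 as the only control. With control 1 as the only control the direction turned for Fos (1.12), Fosb (0.78), Junb (0.20), Egr1 (1.23), Atf3 (0.081), Nr4a1 (0.84), Dusp1 (0.34), Ier2 (0.16), Nppb (0.58), Vegfa (0.10), Dbp (-0.33), Nr1d1 (-0.072), Col1a1 (-0.21), Cldn5 (0.19), Irs2 (0.14), Sgk1 (0.095), Cyr61 (0.38), Jun (0.33), Egr3 (1.57) and Btg2 (0.22). Genes near 0 changed sign under single settings: Esrra was -0.080 with limma-voom, Myh6 was 0.012 with GC offsets, Myh6 was 0.010 with the block and GC offsets, Myh6 was 0.011 with GC offsets in 9 libraries, Col1a1 was -0.20 with limma-voom, Col1a1 was -0.000983 with no filter, Col1a1 was -0.017 with the replicate block. Without trained 2, the values were -0.096 for Igf1 with GC offsets, -0.070 for Esrra with GC offsets, -0.11 for Esrra in 9 libraries, 0.061 for Myh6 with GC offsets, -0.096 for Col1a1 with GC offsets, -0.24 for Col1a1 in 9 libraries. Leaving out libraries singly, or control 1 with trained 2, gave log2 differences of 0.025 to 0.51 for Igf1, -0.12 to 0.12 for Esrra, -0.38 to 0.061 for Nppb, -0.066 to 0.031 for Myh6, -0.29 to 0.010 for Vegfa, -0.20 to 0.013 for Apln, -0.022 to 1.71 for Dbp, -0.23 to 0.12 for Col1a1, -0.00013 to 0.24 for Mt2. The cause of these turns was not tested. Levels below 0.251 to 0.339 CPM rest on fewer than 3 counts in a library.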

Other observations

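Several genes of other lists had control and trained libraries that did not overlap, beside 9.24% of all genes tested, though none was called by edgeR with 6 libraries. Fbxo32, the muscle ubiquitin ligase atrogin-1, was at 138, 170 and 162 CPM in controls and at 231, 173 and 199 CPM in trained hearts (log2 difference 0.35 ± 0.13). Tagln, a marker of smooth muscle, was at 26.7, 19.1 and 20.3 against 31.8, 32.3 and 34.9 CPM (0.58 ± 0.16), and the 8 smooth muscle markers had a median of 0.25. Flt1, a receptor for vascular endothelial growth factor, was at 164, 156 and 159 against 133, 124 and 137 CPM (-0.29 ± 0.10). Fn1, the matrix protein fibronectin, was at 74.3, 77.2 and 74.3 against 61.1, 66.1 and 53.5 CPM (-0.32 ± 0.12). Control values were tight for both Flt1 and Fn1. The edgeR adjusted p of Fbxo32, Tagln, Flt1 and Fn1 were 0.916, 0.788, 0.883 and 0.909.

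Proliferation genes were low. Mki67, the marker of cycling cells, was at 1.30, 0.472 and 0.717 CPM in controls and at 3.07, 1.10 and 2.27 CPM in trained hearts, which overlapped through trained 2 and control 1 (log2 difference 1.32 ± 0.49, edgeR adjusted p 0.909). The 21 cell cycle genes tested had a median of 0.19. At an unadjusted p below 0.05 in edgeR, 2 were higher and 0 lower, beside 2.7% and 2.51% of all genes.

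Otud1, a deubiquitinase, and Gadd45g, a stress gene, followed the pattern of control 2 and control 3 and were chosen after their values were seen. Otud1 was at 29.1, 171 and 204 CPM in controls and 19.6, 25.7 and 32.4 CPM in trained hearts, and Gadd45g was at 6.76, 30.6 and 31.0 against 7.06, 5.65 and 6.49 CPM. In both genes control 1 was within the trained range.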
